A study of Mus musculus with 24 samples.

Results

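Diaphragm muscle of eosinophil-deficient PHIL mice was compared between 7 and 2 days post infection (dpi) with newborn larvae (NBL) of the nematode Trichinella spiralis. The comparison took in the 3 PHIL arrays at 7 dpi and the 3 PHIL arrays at 2 dpi, which are 6 of the 16 WT and PHIL arrays and of 24 arrays in the series. PHIL mice, here on the C57BL/6 background, carry a transgene that expresses a toxin from the eosinophil peroxidase promoter, so that cells of the eosinophil lineage are lost. Infected mice received 25000 NBL intravenously, which places all larvae at the same stage of muscle invasion, and the RNA came from whole diaphragm, 1 mouse per array. PHIL naive diaphragm (2 arrays) and C57BL/6 WT diaphragm that was naive (2 arrays), at 2 dpi (3 arrays) or at 7 dpi (3 arrays) served to place the changes. Ages are not in the labels.

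Larvae of T. spiralis enter single skeletal muscle fibres, which lose their contractile character and become nurse cells that feed the parasite, within a newly built collagen capsule. Invasion damages fibres and draws in leukocytes. Interferons made early in the response switch on antiviral genes and guanosine triphosphatases (GTPases) that attack intracellular microbes, and damaged or denervated fibres return to a programme of fetal acetylcholine receptors and developmental myosins. Repair then proceeds through myofibroblasts, which contract and lay down matrix. Eosinophils are a hallmark of the response to helminths.

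Each array measured 25697 probes, and 8226 genes had a probe detected on at least 2 of the 16 arrays. Between 9695 and 10627 probes were detected on the 6 arrays. Values are normalised log2 signals, in which 1 unit is a doubling, and each gene is represented by 1 probe, so levels of different genes cannot be set against each other. Arrays within a group correlated at 0.9883 to 0.9919 over 6 pairs, and arrays of different groups at 0.9531 to 0.9631 over 9 pairs. All 9 skeletal muscle markers were detected. Of 9 eosinophil markers on the array, 8 were detected on none of the 16 arrays, WT included, so the eosinophil status of the mice could not be checked here. The other marker, Rnase2a, was detected on 2 of 3 PHIL arrays at 7 dpi and on 0 at 2 dpi or in PHIL naive diaphragm. Its log2 change from 2 to 7 dpi was 0.89 in PHIL (adjusted p = 0.0517, not called) and 0.36 in WT diaphragm. Against PHIL naive diaphragm it was called higher at 7 dpi (1.07). The Y-linked gene Eif2s3y was detected on 2 of the 3 arrays at 7 dpi (replicates 1 and 3) and on none of the 3 at 2 dpi. Xist, which is transcribed from the inactive X chromosome, was detected on 0 of 3 arrays at 7 dpi and on 3 of 3 at 2 dpi. Neither gene was detected in PHIL naive diaphragm, so Xist did not settle the sex of the mice. Its mean at 2 dpi was a dim 6.14, and its call as lower at 7 dpi was lost in 4 of the 6 settings that left out 1 array. Among the WT arrays Eif2s3y was detected on replicate 1 of the naive group, replicate 1 at 2 dpi and replicates 1 and 3 at 7 dpi. Sex is not in the labels and its part in the changes was not tested, so the gene counts that lead each paragraph are also given, where they move by over 1.5 times, with Eif2s3y as a covariate and without the arrays on which it was detected. The last setting leaves 1 PHIL array at 7 dpi, whose spread was then taken from the other groups.

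At 7 dpi 878 genes (10.7% of those tested) were called higher than at 2 dpi and 784 (9.53%) were called lower, at an adjusted p of at most 0.05 and a change of at least 1.5-fold in limma. The groups did not overlap in 1643 of the 1662 called genes, whereas 52.7% of all tested genes had groups that did not overlap. A change of at least 4-fold was seen in 39 genes called higher and 14 called lower. When arrays were scaled to a common median in place of quantile normalisation, 1668 genes were called higher and 406 lower, so that 80.4% of the calls were rises, and the median over all genes was a log2 change of 0.21 against -0.02. The balance of rises and falls therefore depends on the scaling. With Eif2s3y as a covariate 1548 genes were called, of which 1426 were among the 1662, and without the arrays that detected it 1473 were called, 1193 of them among the 1662.

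Infection had already moved 872 genes (10.6%) above and 653 (7.94%) below the level of PHIL naive diaphragm at 2 dpi. Of these 872 early genes 294 were called lower at 7 dpi, which is 33.7% of the early genes and 37.5% of the genes called lower. A further 82 were called higher still and 496 were not called. Of the 653 genes below naive at 2 dpi 157 were called higher at 7 dpi and 6 lower still. Set against naive diaphragm at 7 dpi, 547 of the 878 rises were called higher, 5 lower and 326 neither way. Of the 784 falls 246 were called lower than naive, 92 higher and 446 neither way. The comparisons share arrays, so these counts describe the time course and are not independent of each other. A group of 126 genes was detected on all 3 arrays at 7 dpi and on none at 2 dpi, and 54 genes showed the opposite. With a detection p under 0.05 in place of 0.01, these numbers were 92 and 14.

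The interferon-inducible GTPases declined nearly as a whole group, and the upstream sequences of their leading members are shown because they hold the letters that interferon-activated factors are known to bind. The 200 bases just before the start of Igtp (chr11:58199356-58199555, plus strand) and Gbp7 (chr3:142530136-142530335, plus strand), from RefSeq on GRCm38.p6, read as follows, with the core of the interferon-stimulated response element (ISRE, GAAA followed after any 2 bases by GAAA, on either strand) and of the gamma-activated site (GAS, TTCNNNGAA, on either strand) in capitals.
Igtp: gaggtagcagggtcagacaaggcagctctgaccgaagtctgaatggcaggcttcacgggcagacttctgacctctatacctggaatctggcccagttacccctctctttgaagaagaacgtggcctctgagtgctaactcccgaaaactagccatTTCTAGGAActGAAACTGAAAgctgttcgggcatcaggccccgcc
Gbp7: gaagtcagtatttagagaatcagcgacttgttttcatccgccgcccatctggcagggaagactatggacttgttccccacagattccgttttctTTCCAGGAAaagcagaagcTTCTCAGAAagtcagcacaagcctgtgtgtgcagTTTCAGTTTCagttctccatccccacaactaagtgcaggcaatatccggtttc
Igtp held 1 ISRE core and 1 GAS core, with no overlap between them. Gbp7 held 1 ISRE core, written here on the opposite strand, and 2 GAS cores. Promoters spanning 250 bases before to 50 after the start were found for 6701 of the 8226 tested genes. The ISRE core was present in 8 of the 9 GTPase promoters found, in 9 of 17 promoters of antiviral genes, in 7.92% of promoters of genes called lower, in 3.02% of those called higher and in 3.88% of all tested. The GAS core was present in 5 of the 9 GTPase promoters and in 7 of 17 promoters of antiviral genes. It was found in 10.1% of promoters of genes called lower, in 10.4% of those called higher and in 8.42% of all tested. Over all 27025 promoters of the table the shares were 3.99% for the ISRE core and 9.55% for the GAS core. A match of these letters is a description and not evidence of binding.

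Of 11 measured interferon-inducible GTPases 10 were called lower at 7 dpi and none higher, with a median log2 change of -1.41, against -0.02 over all genes tested. These proteins assemble on the vacuoles of intracellular pathogens. Gbp7, a guanylate-binding protein, had signals of 6.57, 7.68 and 7.59 at 7 dpi, against 9.64, 9.59 and 9.69 at 2 dpi, and 5.67 and 5.27 in naive diaphragm. It fell 5.15-fold (log2 change -2.36, SE 0.30, adjusted p = 4.62e-05), and the groups did not overlap. Igtp, an immunity-related GTPase, had signals of 12.29, 13.23 and 13.11 at 7 dpi, against 14.21, 14.47 and 14.17 at 2 dpi, and 8.54 and 8.35 in naive diaphragm. Igtp fell 2.65-fold (log2 change -1.41, SE 0.31, adjusted p = 0.00281) and at 7 dpi still stood 4.43 log2 units above naive diaphragm. Replicate 1 was the lowest of the 7 dpi arrays for Igtp and Gbp7, as it was for Irgm1, at 9.91 against 10.97 and 10.88 in the other 7 dpi arrays. Irgm1, which is needed to control intracellular bacteria in mice, had 12.10, 12.25 and 11.99 at 2 dpi and fell 2.88-fold (SE of the log2 change 0.31, adjusted p = 0.00154). Gbp10 (-1.90), Tgtp1 (-1.66), Ifi47 (-1.64) and Gbp3 (-1.12, all log2 changes) also fell. Gbp5 was detected on all arrays at 2 dpi and on none at 7 dpi, and was at least 2.12-fold lower (adjusted p = 3.17e-04). Falls of Irgm2 (-0.88) and Gbp2 (-0.81) were smaller, and both lost their call when replicate 1 at 7 dpi was left out (adjusted p = 0.0676 and 0.142). Gbp2 did so in 3 of the 6 settings that left out 1 array. Iigp1 was the exception, with log2 signals of 4.78, 5.23 and 5.60 at 7 dpi, against 5.11, 5.35 and 5.53 at 2 dpi, and it was detected on no array of either group. With Eif2s3y as a covariate 8 of the 11 were called lower, and without the arrays that detected it 9 were.

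Antiviral genes that respond to type I interferon declined along with the GTPases. Of 26 measured members 25 were called lower and none higher, with a median log2 change of -1.37. Bst2, a tethering factor that retains budding virus, had signals of 6.63, 7.70 and 7.29 at 7 dpi, against 9.61, 9.78 and 10.41 at 2 dpi, and 5.98 and 7.08 in naive diaphragm. Bst2 fell 6.60-fold (log2 change -2.72, SE 0.42, adjusted p = 1.99e-04), and at 7 dpi its values overlapped those of naive diaphragm. Isg15, a ubiquitin-like modifier, had 7.38, 8.53 and 8.29 at 7 dpi, against 9.97, 10.48 and 10.12 at 2 dpi, a 4.36-fold fall (log2 change -2.13, SE 0.25, adjusted p = 2.5e-05). Ifit3 fell 4.03-fold, with 11.14, 11.78 and 11.78 at 7 dpi, against 13.31, 13.79 and 13.64 at 2 dpi (SE of the log2 change 0.21, adjusted p = 9.8e-06). Every 7 dpi array lay below every 2 dpi array for these genes. Oasl2 (-2.22), Ifi27l2a (-2.04), Mx2 (-1.93) and the antiviral enzyme Rsad2 (-1.92) fell by similar amounts on the log2 scale. Ifitm3 had a log2 change of -0.55 and was the member not called. The list kept 21 calls with Eif2s3y as a covariate and 22 without the arrays that detected it. Trim30a and Tmem140 were detected on 3 of 3 arrays at 2 dpi and on none at 7 dpi, at least 2.94-fold and 2.37-fold lower (adjusted p = 1.63e-04 and 1.31e-05).

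Interferon signalling genes were mostly not called. Of 17 measured, 5 were called lower and 2 higher (median log2 change -0.25). Over all genes 9.53% were called lower and 10.7% higher, so the rises were near that share. Irf7, the transcription factor that amplifies type I interferon, had signals of 7.31, 8.43 and 8.37 at 7 dpi, against 9.80, 10.18 and 10.13 at 2 dpi, and fell 4.0-fold (SE of the log2 change 0.33, adjusted p = 3.06e-04). The groups did not overlap. Stat2 (a log2 change of -1.22) and Irf9 (2.01-fold), which form part of the complex that binds the ISRE, fell as well. Irf1 fell by 0.78 (adjusted p = 0.025), a call that was lost in 4 of the 6 settings that left out 1 array. The feedback inhibitors Socs3 (0.81) and Cish (1.21) rose. Cish had 9.80, 10.24 and 11.04 at 7 dpi, against 9.18, 9.50 and 8.77 at 2 dpi, and its call (adjusted p = 0.0342) was lost without 4 of the 6 arrays in turn. Irf2, Irf5, Jak2 and Tyk2 had log2 changes between -0.17 and 0.21 and were not called. Under median scaling 5 members were called higher and 3 lower, and with Eif2s3y as a covariate 3 were called lower.

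**Figure D1:**
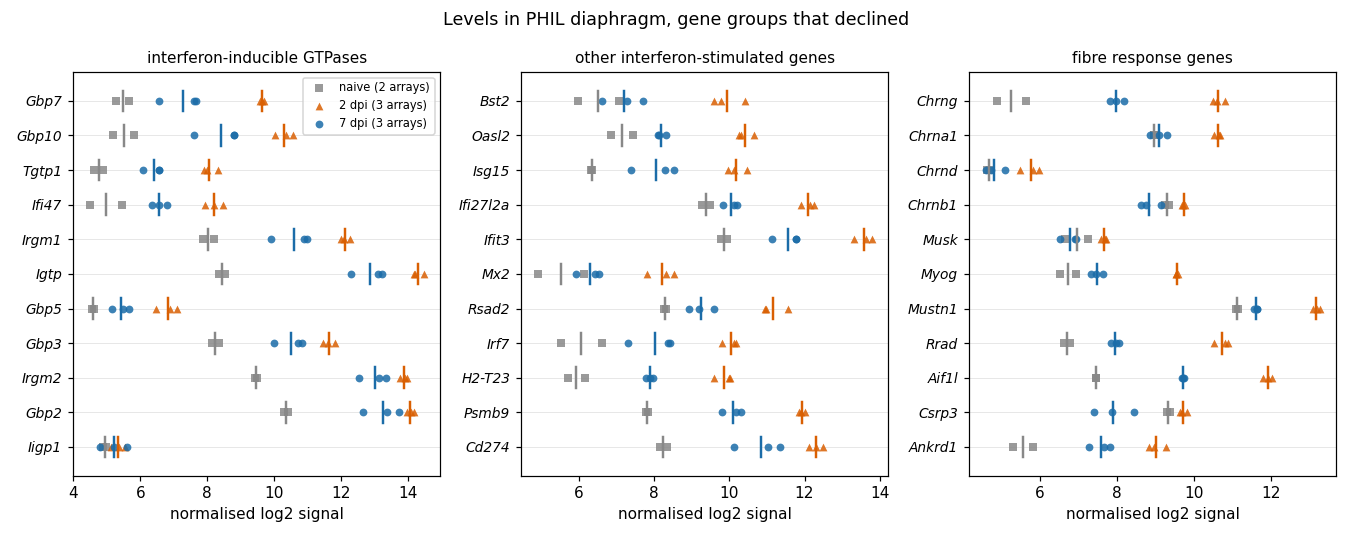
Normalised log2 signal (horizontal axis) of 33 genes in PHIL diaphragm, 1 marker per array and a vertical bar at each group mean, in naive muscle (2 arrays, squares) and at 2 dpi (3 arrays, triangles) and 7 dpi (3 arrays, circles). In the 3 panels, which hold GTPases, other interferon-stimulated genes and fibre response genes, the 7 dpi points lie left of the 2 dpi points in every row but Iigp1.

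Genes that load peptides on MHC class I declined while most class I heavy chains were not called. In this list of 19 measured genes 9 were called lower and none higher (median log2 change -0.66). Psmb9, a catalytic subunit of the immunoproteasome, had signals of 9.82, 10.30 and 10.19 at 7 dpi, against 11.89, 12.01 and 11.85 at 2 dpi, and fell 3.52-fold (SE of the log2 change 0.25, adjusted p = 7.63e-05). The companion subunits Psmb10 (-1.58) and Psmb8 (-0.99) fell too, as did the peptide transporter genes Tap2 (-1.38) and Tap1 (-0.67). The non-classical class I gene H2-T23 had 7.80, 7.90 and 7.99 at 7 dpi, against 9.60, 9.99 and 10.03 at 2 dpi, and fell 3.93-fold (SE of the log2 change 0.26, adjusted p = 6.43e-05). H2-K1 had a log2 change of -0.31 (adjusted p = 0.184), H2-D1 of -0.33 and B2m of -0.45, and none of them was called. Class I genes are closely related in sequence, so a probe may read more than 1 of them. A short list of inhibitors of T-cell responses was divided, with 2 of 4 measured members called lower and 1 higher. Cd274, which encodes PD-L1, fell 2.77-fold, with 10.14, 11.04 and 11.34 at 7 dpi, against 12.13, 12.48 and 12.31 at 2 dpi (adjusted p = 0.0028). Ido1, which degrades tryptophan, fell 2.85-fold (adjusted p = 0.00226). Il4i1, which oxidises phenylalanine, had 7.88, 7.90 and 8.41 at 7 dpi, against 6.97, 7.21 and 7.11 at 2 dpi, and rose 1.95-fold (adjusted p = 2.06e-04), while Arg1, the gene of arginase, had a log2 change of 0.04 and was not called. Without the arrays that detected Eif2s3y 1 of the 4 was called lower. Of 10 complement genes 4 were called lower, beside 9.53% of all genes. Among them was C2 (-1.43), which had 10.33, 10.53 and 10.65 at 7 dpi, against 11.80, 11.77 and 12.22 at 2 dpi. The C1q chains C1qa, C1qb and C1qc had log2 changes of 0.06, 0.35 and 0.57 and were not called.

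Not every early immune gene declined. Cxcl9, a chemokine induced by interferon gamma, had signals of 12.09, 12.49 and 13.15 at 7 dpi, against 12.43, 12.91 and 12.20 at 2 dpi, and 7.42 and 7.71 in naive diaphragm. The log2 change was 0.07 (SE 0.32, adjusted p = 0.89), and the groups overlapped. Cxcl10 (-0.27, SE 0.32) and the monocyte chemoattractant Ccl8 (0.00, SE 0.37) were not called either. Both were undetected in naive diaphragm and were called higher than naive at both times. Of 24 chemokine genes 4 were called higher and 2 lower, and without the arrays that detected Eif2s3y 1 was higher, and with Eif2s3y as a covariate 1 was lower. Over all genes 10.7% were called higher and 9.53% lower. With the authors' normalised values 2 chemokine genes were higher and 1 lower. Ccl5, made by T cells, was detected on 1 of 3 arrays at 2 dpi. It had 7.21, 6.79 and 7.44 at 7 dpi, against 5.73, 6.84 and 5.71 at 2 dpi, a 2.07-fold rise (adjusted p = 0.011) with overlapping groups. That call was lost without replicate 3 at 2 dpi (adjusted p = 0.0522). Ccl17, a ligand of the receptor CCR4 on Th2 cells, was detected on no array at 2 dpi and on 2 of 3 at 7 dpi. It was at least 1.17-fold higher, a bound below the fold threshold of a call. Ccl17 is counted as called for the log2 change of 1.39 in its own signals (adjusted p = 5.54e-06), which were undetected at 2 dpi.

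MHC class II genes, which display peptides to CD4+ T cells, rose where they changed. Of 10 measured 3 were called higher and none lower (median log2 change 0.25). Cd74, the invariant chain, had signals of 13.33, 13.14 and 13.39 at 7 dpi, against 12.31, 12.27 and 12.13 at 2 dpi, and 10.29 and 10.53 in naive diaphragm. Cd74 rose 2.07-fold (SE of the log2 change 0.12, adjusted p = 2.68e-05). H2-Ab1 and H2-Eb1 rose 1.91-fold each, whereas H2-Aa had 8.01, 7.84 and 8.15 at 7 dpi, against 7.97, 8.09 and 7.93 at 2 dpi. Ciita, the master regulator of class II transcription, had a log2 change of 0.18 (adjusted p = 0.519).

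Most monocyte and macrophage markers were early genes that were not called between the times. Of 26 measured, 25 were early genes, and at 7 dpi 3 were called higher and 3 lower, which is 11.5% each way and near the shares over all genes (10.7% higher, 9.53% lower). The median log2 change was 0.02. Under median scaling 8 were called higher and 2 lower, and with Eif2s3y as a covariate 5 were higher and 2 lower. Their summed signal ranged from 26850 to 33360 at 7 dpi, against 23920 to 27700 at 2 dpi and 6721 to 7617 in naive diaphragm. Cx3cr1, the fractalkine receptor, rose 2.38-fold, with 7.52, 7.10 and 7.19 at 7 dpi, against 6.39, 5.96 and 5.70 at 2 dpi (adjusted p = 6.83e-05). Coro1a, a leukocyte actin regulator that T cells also express, rose 1.92-fold. The fall of the lysozyme gene Lyz2 (-0.93) is uncertain, because its probe of highest mean gave a log2 change of 0.66.

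Among the cell type lists, that of T cells had the most genes called higher. In whole tissue a change in the number of cells of a type cannot be told apart from a change in RNA per cell. Of 30 T and cytotoxic lymphocyte markers on the array, 13 were detected on under 2 of the 16 arrays and were left out. Of the 17 measured 11 were called higher and 1 lower (median log2 change 1.10). A marker could pass this filter through 7 dpi arrays alone, as Ifng did, so the count and median lean toward rises. The summed signal of the measured markers was 2832 to 3895 at 7 dpi, against 1084 to 1550 at 2 dpi and 828.5 to 861.3 in naive diaphragm, with no overlap between the times. Cd8b1, a chain of the CD8 co-receptor, had signals of 9.04, 8.30 and 9.32 at 7 dpi, against 5.50, 6.41 and 5.47 at 2 dpi, and rose 8.53-fold (SE of the log2 change 0.25, adjusted p = 9.05e-07), while its second probe gave a log2 change of 1.10. Cd8b1 was detected on 1 of 3 arrays at 2 dpi, and rose 7.14-fold against the dimmest detected signals where those were higher. Cd3g, part of the T-cell receptor complex, had 8.22, 8.22 and 8.51 at 7 dpi, against 5.71, 6.41 and 5.87 at 2 dpi, a 4.99-fold rise (adjusted p = 6.33e-06). At 2 dpi Cd3g, Cd6 and Cd3e were each detected on 1 of 3 arrays too. Cd6 (2.35), Cd3d (2.25), Ctsw (2.16), Cd3e (2.06) and Nkg7 (1.96) rose as well on the log2 scale. Replicate 2 was the highest of the 2 dpi arrays for each of these genes, and no 7 dpi array fell below it. Ifng, the gene of interferon gamma, was detected on 3 of 3 arrays at 7 dpi and on none at 2 dpi. It had 5.61, 6.03 and 6.28 at 7 dpi, against 4.74, 5.05 and 4.83 at 2 dpi, and was at least 1.13-fold higher. That bound lies below the fold threshold of a call. Ifng is counted as called for the log2 change of 1.10 in its own signals (adjusted p = 0.00134), which were undetected at 2 dpi. Prf1, the gene of perforin, was the member that fell (-0.75), and Foxp3, the marker of regulatory T cells, had a log2 change of 0.25 and was not called. With Eif2s3y as a covariate 10 markers were called higher, and 9 without the arrays that detected it. Of 11 B-cell markers on the array 8 were detected on none of the 16 arrays.

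Part of the genes of the acetylcholine receptor and the neuromuscular junction declined as well. Of 17 measured 8 were called lower and none higher (median log2 change -0.52), with 1 higher when Eif2s3y was a covariate. The 200 bases before the start of the fetal receptor subunit Chrng (chr1:87205611-87205810, plus strand) and of Chrna1 (chr2:73580339-73580538, minus strand), from RefSeq on GRCm38.p6, are shown with the E-box CAGCTG in capitals, the palindromic site known to bind the myogenic factors MyoD and myogenin.
Chrng: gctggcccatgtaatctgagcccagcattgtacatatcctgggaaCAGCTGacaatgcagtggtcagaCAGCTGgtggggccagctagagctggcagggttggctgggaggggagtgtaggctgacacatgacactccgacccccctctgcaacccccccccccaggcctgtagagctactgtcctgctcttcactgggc
Chrna1: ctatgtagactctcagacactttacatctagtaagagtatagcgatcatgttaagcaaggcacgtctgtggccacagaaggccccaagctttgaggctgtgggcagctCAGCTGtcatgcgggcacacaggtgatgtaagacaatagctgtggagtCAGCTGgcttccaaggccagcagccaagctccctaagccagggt
Each held 2 copies. The E-box was present in 6 of the 13 promoters found for this list, in 21.1% of promoters of genes called lower, in 18.8% of those called higher, in 18.5% of all tested and in 18.3% of the whole table. Chrng, which replaces the adult subunit in denervated fibres, had signals of 8.17, 7.82 and 7.97 at 7 dpi, against 10.80, 10.60 and 10.49 at 2 dpi, and 5.63 and 4.90 in naive diaphragm. It fell 6.24-fold (log2 change -2.64, SE 0.16, adjusted p = 5.4e-08) and stayed above naive diaphragm on every array. Chrna1, the subunit common to both receptor forms, had 9.31, 8.86 and 9.10 at 7 dpi, against 10.68, 10.66 and 10.53 at 2 dpi, and 8.96 and 8.97 in naive diaphragm. Chrna1 fell 2.89-fold (SE of the log2 change 0.13, adjusted p = 1.25e-06), to values that overlapped those of naive muscle. Chrnb1 (-0.89) and Musk (-0.88), the kinase that clusters receptors, fell less on the log2 scale. The adult subunit Chrne had a log2 change of -0.34 (adjusted p = 0.246) and overlapping groups.

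Myog, the gene of myogenin, had signals of 7.34, 7.65 and 7.45 at 7 dpi, against 9.53, 9.52 and 9.59 at 2 dpi, and 6.53 and 6.95 in naive diaphragm. Myog fell 4.19-fold (SE of the log2 change 0.15, adjusted p = 3.55e-07), although its second probe gave a smaller log2 change of -0.88. Myod1 (0.13) and Myf6 (0.03), which encode related myogenic factors, were not called. Mustn1, a small nuclear protein of regenerating muscle, had 11.64, 11.63 and 11.56 at 7 dpi, against 13.08, 13.18 and 13.26 at 2 dpi, and fell 2.96-fold (adjusted p = 2.8e-07). The groups lay far apart relative to their spread in both genes.

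Of 21 measured stretch- and injury-responsive muscle genes 10 were called lower and 1 higher (median log2 change -0.58). Without the arrays that detected Eif2s3y 6 were called lower. Ankrd1, a stretch sensor of the sarcomere, had signals of 7.81, 7.27 and 7.67 at 7 dpi, against 8.95, 9.27 and 8.84 at 2 dpi, and 5.30 and 5.83 in naive diaphragm, a 2.71-fold fall (adjusted p = 2.83e-05). Xirp1, a scaffold recruited to damaged myofibrils, fell 3.19-fold, with 7.65, 7.72 and 7.87 at 7 dpi, against 9.51, 9.56 and 9.19 at 2 dpi (adjusted p = 1.08e-06). The 3 arrays of each time were close together and apart from those of the other time. Csrp3, a Z-disc protein, fell 3.49-fold (adjusted p = 0.00179), and the small heat shock genes Hspb3 (-1.68), Hspb1 (-0.87) and Hspb7 (-0.81) fell on the log2 scale. Cryab had a log2 change of -0.58, just short of the fold threshold. Aif1l, an actin-binding protein, had 9.74, 9.72 and 9.70 at 7 dpi, against 12.03, 11.93 and 11.79 at 2 dpi, and fell 4.58-fold (SE of the log2 change 0.11, adjusted p = 1.23e-08).

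The largest falls outside these lists included Rrad and Nrcam. Rrad, a small GTPase that limits calcium entry, had signals of 8.06, 7.84 and 7.97 at 7 dpi, against 10.51, 10.89 and 10.81 at 2 dpi, and 6.77 and 6.62 in naive diaphragm. It fell 6.86-fold (log2 change -2.78, SE 0.23, adjusted p = 1.15e-06), the largest fall among called genes detected in both groups. Nrcam, a neuronal adhesion molecule, fell 4.0-fold, with 8.08, 7.85 and 8.13 at 7 dpi, against 10.26, 9.94 and 9.86 at 2 dpi (adjusted p = 2.57e-07). Gsta1, a glutathione S-transferase of the antioxidant response, passed out of detection. It had 5.07, 4.58 and 4.74 at 7 dpi, detected on no array, against 9.48, 9.63 and 9.54 at 2 dpi, and 4.69 and 4.67 in naive diaphragm, also undetected. Gsta1 was at least 14.0-fold lower at 7 dpi (adjusted p = 8.68e-11). Its probe may also read close paralogs. A probe annotated as Vmn1r65, a vomeronasal receptor, had 7.05, 9.13 and 7.96 at 7 dpi, against 10.41, 10.31 and 10.23 at 2 dpi (log2 change -2.27, adjusted p = 7.75e-04), and its assignment to that gene could not be checked here. Tesmin, known from testis, was detected on 3 of 3 arrays at 2 dpi and on none at 7 dpi, and was at least 2.06-fold lower.

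Contractile and metabolic genes of mature fibres were mostly not called. Of 44 sarcomere, Z-disc and calcium handling genes 8 were called lower and 2 higher (median log2 change -0.15), which is 18.2% called lower beside 9.53% of all genes. Under median scaling 4 were lower and 5 higher, and without the arrays that detected Eif2s3y 4 were lower and 7 higher. Cacng1, a subunit of the muscle calcium channel, fell 3.59-fold, with 7.35, 7.27 and 7.23 at 7 dpi, against 9.23, 9.0 and 9.15 at 2 dpi (adjusted p = 2.8e-07). Naive diaphragm had 7.23 and 7.10. Myh4, the fastest adult myosin, had 5.93, 5.98 and 5.04 at 7 dpi, against 6.77, 7.17 and 7.57 at 2 dpi, and its call (log2 change -1.52, adjusted p = 0.0364) was lost without 5 of the 6 arrays in turn. The falls of Tpm3 and Ryr1 are uncertain, since the probe of highest mean gave log2 changes of 0.48 and 0.41. Myh7, Acta1, Ttn and Ckm had log2 changes between -0.09 and 0.06. Over all genes 9.53% were called lower and 10.7% higher. Of 59 genes of the respiratory chain and ATP synthase 9 were called lower and 3 higher (median -0.06), and 3 were called lower under median scaling. Uqcrb, a subunit of complex III, fell 2.37-fold, with 8.03, 7.79 and 7.71 at 7 dpi, against 8.94, 9.25 and 9.07 at 2 dpi (adjusted p = 3.34e-05). The 3 members called higher were Cox6a1 (1.24), Atp5o (1.01) and Cox8a (0.80, all log2 changes), and the change of Uqcrb on that scale was -1.24. Of 33 genes of fatty acid use 7 were called lower and 2 higher (median 0.01), against 4 lower and 4 higher under median scaling and 4 lower and 1 higher with the authors' normalised values. Ppargc1a, which drives mitochondrial biogenesis, fell 2.32-fold, with 8.68, 8.04 and 8.80 at 7 dpi, against 10.01, 9.55 and 9.60 at 2 dpi (adjusted p = 4.3e-04).

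Markers of mesothelium, the cell layer that covers the diaphragm, were lower at 7 dpi. Of 12 measured 10 were called lower and none higher (median log2 change -0.99). Their summed signal was 1864 to 2351 at 7 dpi, against 3919 to 7300 at 2 dpi and 1834 to 2625 in naive diaphragm. Krt8, an epithelial keratin, had 6.09, 6.83 and 6.35 at 7 dpi, against 7.66, 8.13 and 8.42 at 2 dpi, and fell 3.13-fold (adjusted p = 5.1e-04). Msln, the gene of mesothelin, was detected on 3 of 3 arrays at 2 dpi and on none at 7 dpi, at least 1.72-fold lower (adjusted p = 0.00211). Wt1, a defining factor of mesothelium, had a log2 change of -0.40 and was not called. The count of 10 was 7 with Eif2s3y as a covariate, 4 with the authors' normalised values and 2 without the arrays that detected Eif2s3y. Fibroblast markers showed 5 of 14 called lower and 1 higher (median -0.41), with 3 lower under the Eif2s3y covariate and 2 without the arrays that detected it. Pdgfra, the receptor that marks fibro-adipogenic progenitors, had 9.19, 8.99 and 9.24 at 7 dpi, against 10.02, 10.09 and 10.04 at 2 dpi, a 1.88-fold fall (adjusted p = 3.78e-04).

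Genes of developmental contractile proteins were among the largest rises. Myh8, the perinatal myosin heavy chain, had signals of 11.99, 12.21 and 12.13 at 7 dpi, against 8.13, 7.24 and 8.09 at 2 dpi, and 8.32 and 8.72 in naive diaphragm. It rose 19.6-fold (log2 change 4.29, SE 0.24, adjusted p = 3.46e-08), the largest rise among called genes detected in both groups, and the 2 dpi arrays did not stand above naive muscle. Actc1, the cardiac actin that fetal skeletal muscle also uses, followed another course. It had 13.08, 12.35 and 12.84 at 7 dpi, against 9.85, 9.25 and 9.39 at 2 dpi, and 11.69 and 12.07 in naive diaphragm. Actc1 rose 9.57-fold (SE of the log2 change 0.29, adjusted p = 1.71e-06) after a level at 2 dpi that lay below naive, and its second probe gave a log2 change of 1.07. Myl4, the fetal myosin light chain, had a log2 change of -0.18 and Nes, the gene of nestin, fell (-0.94), so the list of developmental muscle genes did not move one way, with 3 called higher and 2 lower of 9, and 1 lower without the arrays that detected Eif2s3y.

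Smooth muscle and myofibroblast contractile genes rose in 12 of 16 cases and fell in none (median log2 change 1.07). Acta2, the smooth muscle actin that defines myofibroblasts, is shown with 200 bases before its start (chr19:34255374-34255573, minus strand, RefSeq on GRCm38.p6), with its E-box in capitals.
Acta2: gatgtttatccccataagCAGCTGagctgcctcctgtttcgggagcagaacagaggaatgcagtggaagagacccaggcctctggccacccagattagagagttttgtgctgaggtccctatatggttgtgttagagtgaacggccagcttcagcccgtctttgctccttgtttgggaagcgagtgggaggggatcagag
The E-box was present in 4 of 12 promoters found for the list and in 18.5% of all tested, which is not evidence of binding. The CArG box, the site of serum response factor, was searched only in its strict form, CC and GG around 6 bases that are each A or T, on either strand. Known CArG elements of actin promoters, those of Acta2 included, can carry a G or C among the inner bases, and such forms are not counted here. The strict form was present in 1 of 12 promoters found for the list, not that of Acta2, in 1.43% of promoters of genes called lower, 2.30% of those called higher, 1.73% of all tested and 1.81% of the whole table. Acta2 had signals of 11.78, 11.81 and 11.76 at 7 dpi, against 9.40, 9.04 and 9.14 at 2 dpi, and 9.71 and 9.78 in naive diaphragm. It rose 6.03-fold (log2 change 2.59, SE 0.12, adjusted p = 4.99e-09), and its 4 probes gave log2 changes of 2.30 to 2.59. Actg2, the enteric smooth muscle actin, was detected on all 3 arrays at 7 dpi (9.18, 8.80 and 9.23) and on none at 2 dpi (5.48, 5.27 and 5.40), and was at least 9.61-fold higher (adjusted p = 1.15e-08). Tagln, an actin-bundling protein, had 7.54, 7.51 and 7.51 at 7 dpi, against 4.77, 4.84 and 5.29 at 2 dpi, at least 3.28-fold higher (adjusted p = 3.49e-08). The groups were far apart in these 3 genes. Cacna1h, a T-type calcium channel, rose 10.8-fold (adjusted p = 1.32e-08), with 9.87, 9.24 and 9.45 at 7 dpi, against 6.00, 6.37 and 5.88 at 2 dpi. Actin genes are similar in sequence, so their probes may share signal. With the authors' normalised values 8 of the 16 genes were called higher.

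Matrix genes rose alongside. Of 33 collagens and collagen-processing enzymes 15 were called higher and 2 lower (median log2 change 0.49), and of 29 matricellular and other matrix proteins 11 were higher and 2 lower (median 0.42). Col1a1, the main fibrillar collagen of scars, had signals of 11.39, 11.35 and 11.08 at 7 dpi, against 10.34, 9.80 and 9.77 at 2 dpi, and 9.83 and 10.47 in naive diaphragm, a 2.47-fold rise (adjusted p = 6.12e-04). Col4a2 and Col4a1, which form the basement membrane, rose 2.71-fold and 2.43-fold. Col4a2 had 11.75, 11.55 and 11.29 at 7 dpi, against 10.18, 10.08 and 10.02 at 2 dpi, and 11.02 and 11.34 in naive diaphragm, so its 2 dpi arrays were the low ones. Lox, which cross-links collagen, rose 3.40-fold, with 10.41, 10.47 and 10.51 at 7 dpi, against 8.90, 8.71 and 8.47 at 2 dpi (adjusted p = 5.89e-07). Col3a1 had a log2 change of 0.34 (adjusted p = 0.24) and was not called. The 2 members called lower, P4ha1 (-0.64) and Serpinh1 (-0.64), act in collagen maturation and were called lower neither under median scaling nor in the Eif2s3y settings.

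Ccn2, the connective tissue growth factor, had signals of 12.87, 12.21 and 12.57 at 7 dpi, against 10.43, 10.04 and 10.25 at 2 dpi, and rose 4.97-fold (SE of the log2 change 0.18, adjusted p = 7.37e-07). Thbs1, the gene of thrombospondin, was detected on 3 of 3 arrays at 7 dpi and on none at 2 dpi or in naive diaphragm, and was at least 1.66-fold higher (adjusted p = 2e-05). Tnc, the gene of tenascin C, was an early gene that went on rising. It had 9.78, 9.56 and 9.60 at 7 dpi, against 8.65, 8.11 and 8.41 at 2 dpi, and 5.36 and 6.36 in naive diaphragm, a 2.39-fold rise (adjusted p = 0.00354). The small proteoglycan Dcn fell (-0.87), although its second probe gave a log2 change of -0.22. Tgfb1, a growth factor that activates myofibroblasts, rose 1.59-fold (adjusted p = 0.00675), with 6.49, 6.84 and 6.78 at 7 dpi, against 6.13, 6.27 and 5.71 at 2 dpi.

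**Figure D2:**
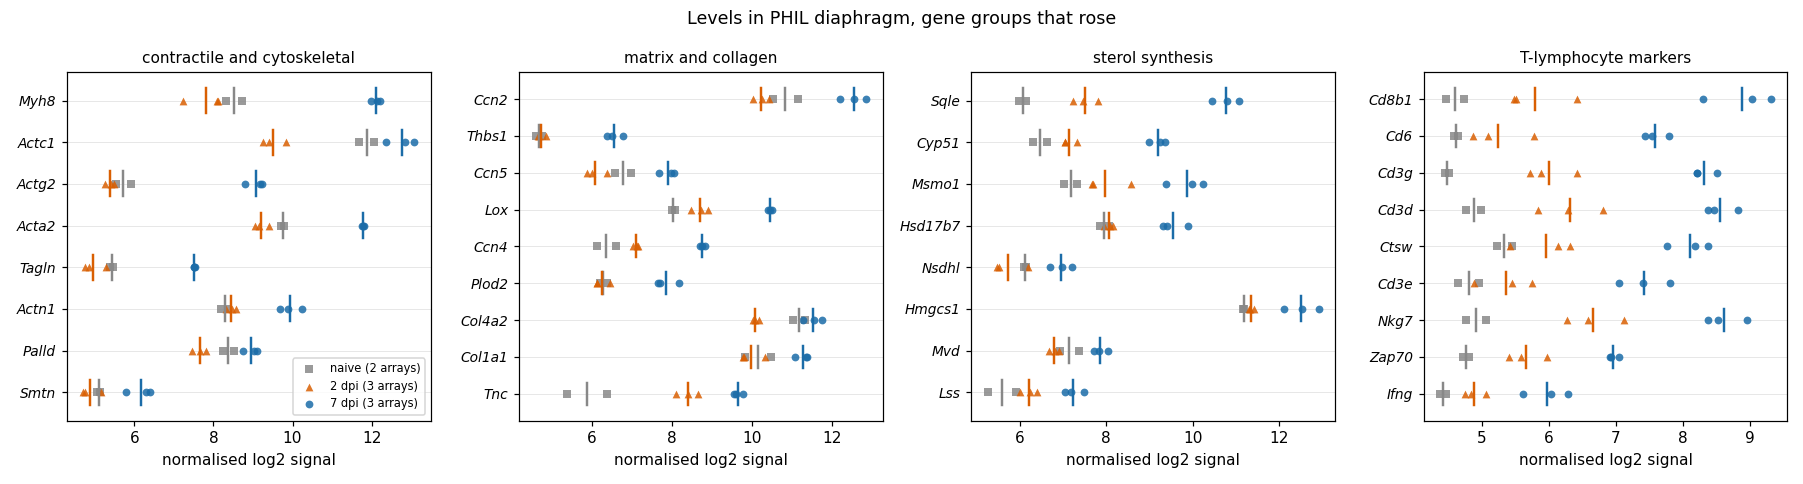
Normalised log2 signal (horizontal axis) of genes that rose, 1 marker per array and a vertical bar at each group mean, in PHIL naive diaphragm (2 arrays, squares) and at 2 dpi (3 arrays, triangles) and 7 dpi (3 arrays, circles). In every row of the 4 panels the 7 dpi points lie right of the 2 dpi points; Actc1, Ccn2 and Col4a2 are examples in which the 2 dpi points also lie left of the naive points.

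Genes of sterol synthesis mostly rose. Of 17 measured 12 were called higher and 1 lower (median log2 change 0.76). Sqle, the squalene epoxidase, had signals of 11.08, 10.43 and 10.79 at 7 dpi, against 7.23, 7.81 and 7.47 at 2 dpi, and 5.98 and 6.15 in naive diaphragm. It rose 9.58-fold (log2 change 3.26, SE 0.20, adjusted p = 7.97e-08). Cyp51, which removes the methyl group of lanosterol, had 9.35, 8.98 and 9.23 at 7 dpi, against 7.04, 7.32 and 7.05 at 2 dpi, a 4.13-fold rise (adjusted p = 3.08e-07). Hmgcs1, at the entry of the pathway, rose 2.23-fold, with 12.91, 12.10 and 12.51 at 7 dpi, against 11.30, 11.32 and 11.41 at 2 dpi (adjusted p = 7.43e-05). Every 7 dpi array lay above every 2 dpi array in these 3 genes, and replicate 2 was the lowest at 7 dpi. Msmo1 (1.89) and Hsd17b7 (1.47) also rose on the log2 scale. Ebp fell (-0.65), and the regulator Srebf2 had a log2 change of 0.15 and was not called. The list kept 10 calls both with Eif2s3y as a covariate and without the arrays that detected it.

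Glycolytic genes rose where they changed, but the muscle forms were not called. Of 23 measured 6 were called higher and none lower (median log2 change 0.16), and 3 were called higher in either Eif2s3y setting. Pfkp, the platelet form of phosphofructokinase, had signals of 9.72, 9.50 and 10.01 at 7 dpi, against 7.85, 8.30 and 7.95 at 2 dpi, and 7.32 and 7.20 in naive diaphragm, a 3.27-fold rise (adjusted p = 1.67e-06). Aldoc, the brain aldolase, was at least 2.59-fold higher (adjusted p = 2.26e-06) and was detected on 3 of 3 arrays at 7 dpi and on none at 2 dpi. Pfkm (0.06), Aldoa (-0.20) and Pgam2 (-0.28), the muscle forms, were not called. Igf2, a fetal growth factor of muscle, had 12.00, 12.07 and 11.95 at 7 dpi, against 11.08, 10.68 and 10.86 at 2 dpi, and rose 2.19-fold (adjusted p = 1.37e-04), while Igf1 had a log2 change of -0.22 (adjusted p = 0.216). The mean of Igf2 in naive diaphragm was 11.56, and its level at 7 dpi was not called different from that.

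Fkbp5 and Per1 were lower at 2 dpi than in naive diaphragm and higher again at 7 dpi. Fkbp5, a chaperone of the glucocorticoid receptor, had signals of 8.80, 8.59 and 9.49 at 7 dpi, against 6.91, 7.19 and 7.01 at 2 dpi, and 8.41 and 8.15 in naive diaphragm, a 3.79-fold rise (adjusted p = 1.01e-04). Per1, a clock gene, had 8.24, 8.24 and 8.07 at 7 dpi, against 7.36, 6.96 and 6.88 at 2 dpi, and 8.30 and 8.12 in naive diaphragm, a 2.17-fold rise (adjusted p = 9.54e-05). Of 12 clock genes 3 were called higher and 2 lower, and 1 was lower in either Eif2s3y setting. The shares over all genes were 10.7% higher and 9.53% lower. The hour at which tissue was taken is not in the labels.

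Genes outside the groups above were also among the largest rises. Arc, an immediate-early gene of neurons, rose 11.6-fold, with signals of 9.55, 9.05 and 9.37 at 7 dpi, against 5.75, 5.88 and 5.74 at 2 dpi (adjusted p = 1.32e-08). Chst8, a sulfotransferase, rose 8.16-fold, with 9.05, 8.94 and 9.10 at 7 dpi, against 6.20, 5.93 and 5.88 at 2 dpi (adjusted p = 1.46e-07). Nt5e, which encodes the adenosine-producing enzyme CD73, rose 7.59-fold (adjusted p = 2.8e-07), but its second probe gave a log2 change of 0.33. Arc and Nt5e were each detected on 1 of 3 arrays at 2 dpi. Against the dimmest detected signals, where those were higher, they rose 10.9-fold and 6.42-fold. Chst8 and Nt5e belong to a list of 11 late genes that was taken from earlier results on these same samples. Cacna1h and Sqle, counted above with the smooth muscle and the sterol genes, are on it too, so those counts are in part not independent either. Of the late list 10 were called higher and none lower, a count that is therefore not independent evidence. Trnp1 (2.85), Cadm1 (2.70), Wasf1 (2.62) and the cell cycle inhibitor Cdkn2b (2.58) rose by over 2 log2 units. Naive diaphragm had 6.73 and 6.35 for Arc, above its 2 dpi arrays, and 5.59 and 6.65 for Chst8, on either side of them. Ucp1, the uncoupling protein of brown fat, stands apart for its spread. It had 11.28, 8.32 and 8.52 at 7 dpi, against 7.39, 4.63 and 7.39 at 2 dpi, and its call (log2 change 2.90, SE 0.80, adjusted p = 0.011) was lost without replicate 1 at 7 dpi or without replicate 2 at 2 dpi. Cidea, another brown fat gene, was likewise highest in replicate 1 at 7 dpi, with 10.54, 8.76 and 8.96 at 7 dpi, against 7.83, 7.64 and 7.99 at 2 dpi. The other 6 measured adipocyte markers, Adipoq among them (-0.53), were not called, and the summed signal of all 8 was 4399 to 9514 at 7 dpi, against 4086 to 4848 at 2 dpi.

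The genes that passed into detection after 2 dpi include Dner and Slitrk5, both known from the nervous system. Dner, a Notch-like neuronal receptor, had signals of 8.09, 7.93 and 7.92 at 7 dpi, against 4.41, 4.66 and 4.75 at 2 dpi, and was at least 4.53-fold higher (adjusted p = 1.25e-09). Slitrk5, a synaptic adhesion protein, was at least 4.10-fold higher, with 8.25, 7.60 and 7.67 at 7 dpi, against 4.75, 4.55 and 4.94 at 2 dpi (adjusted p = 1.87e-08). Igfbp2, which binds insulin-like growth factors, was at least 3.91-fold higher (adjusted p = 3.18e-07), and the inositol transporter Slc2a13 at least 3.48-fold (adjusted p = 5.37e-07). All 4 were undetected on every 2 dpi array.

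Lists of other cell types and of housekeeping functions moved less. Endothelial markers had 3 of 24 called higher and 1 lower (median log2 change 0.16), and genes of cell division 3 of 30 higher and 1 lower (median 0.32), with 14 higher under median scaling and 1 without the arrays that detected Eif2s3y. Under that last setting 5 endothelial markers were higher and 2 lower, 8 ribosomal genes were lower, and 2 muscle markers were higher and none lower. Ribosomal protein genes had 5 of 41 called lower (median -0.18) and proteasome genes 5 of 25 (median -0.28), with none called higher in either. Lysosomal genes had 4 of 29 lower and 1 higher. The shares over all genes were 9.53% lower and 10.7% higher. Muscle markers had 1 of 9 called lower, and their summed signal was 167600 to 197800 at 7 dpi, against 173400 to 183900 at 2 dpi.

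**Figure D3:**
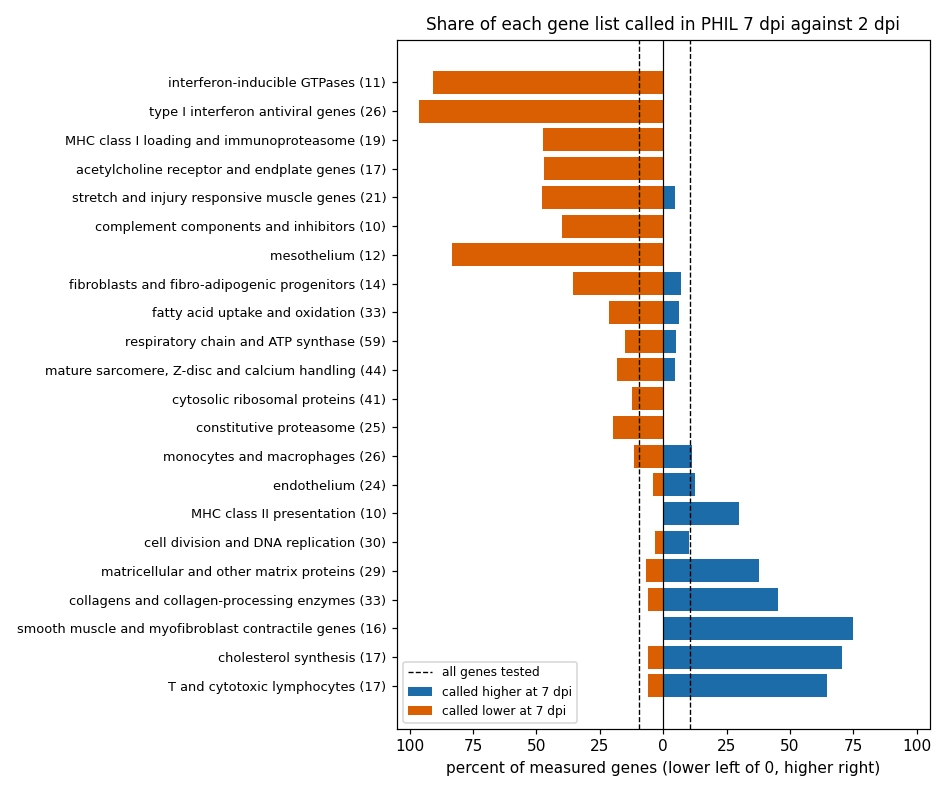
Percent of the measured genes of each list called in PHIL diaphragm at 7 dpi against 2 dpi, with genes called lower to the left of 0 and genes called higher to the right, and the number measured in brackets. Dashed lines mark the shares over all genes tested, 9.53% lower and 10.7% higher.

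The same interval was then examined in WT diaphragm, which shares no array with the PHIL comparison, to ask whether the change differed in PHIL muscle. In WT diaphragm 864 genes (10.5%) were called higher at 7 dpi than at 2 dpi and 661 (8.04%) lower. Of the called genes 1084 were called in the same direction in both, which is 65.2% of the PHIL calls and 71.1% of the WT calls, and 0 were called in opposite directions. Across all 8226 genes the changes correlated at 0.888, a description, since genes are not independent replicates. When the difference between the 2 changes was tested, 0 genes (0%) passed an adjusted p of 0.05 in limma, with 548 at an unadjusted p under 0.05 and a smallest adjusted p of 0.633. Eif2s3y was detected on part of the arrays of both genotypes, and with it as a covariate 0 genes were called for the difference. The interferon-inducible GTPases had a median log2 change of -1.41 in PHIL and -2.08 in WT diaphragm, beside -0.02 over all genes in each. Iigp1, 1 of the 11, was detected only in WT diaphragm at 2 dpi, and Gbp5 was undetected at 7 dpi in both. For Igtp the difference, PHIL minus WT, was 1.06 (95% confidence interval 0.11 to 2.00, adjusted p = 0.704). T-cell markers had a median of 1.10 in PHIL and 0.78 in WT diaphragm. Ifng was detected on none of the WT arrays and, in PHIL, only at 7 dpi, so the size of its difference was not measurable. Sterol genes had a median of 0.76 in PHIL and 1.24 in WT diaphragm, and for Sqle the difference was -0.37 (interval -0.98 to 0.25). Mdh1, the gene of cytosolic malate dehydrogenase, was among the genes of smallest p for the difference, with a log2 change of -0.74 in PHIL and 0.05 in WT diaphragm, and did not pass the adjusted threshold (adjusted p = 0.633). Sh3gl2 and Tesmin were also among them, but Sh3gl2 was detected on no 2 dpi array and Tesmin on no 7 dpi array of either genotype, so their changes have only bounds. For Myh8 (difference -0.21, interval -0.95 to 0.54) and Acta2 (-0.0042, interval -0.36 to 0.35) the intervals include 0, and that of Acta2 limits any difference to under 0.4 log2 units.

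**Figure D4:**
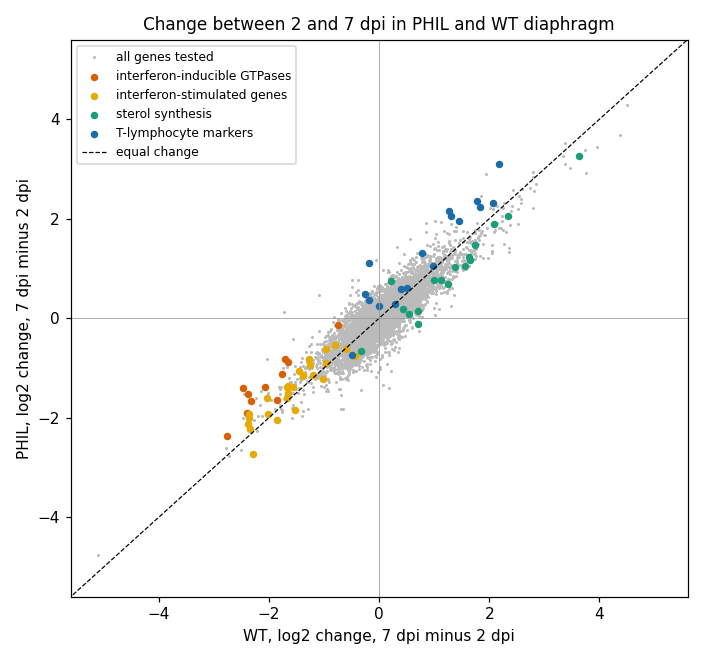
Log2 change between 2 and 7 dpi in PHIL (vertical axis) against WT diaphragm (horizontal axis), 1 point per gene for the 8226 genes tested, with 4 gene lists coloured and a dashed line at equal change. Of all genes 4102 lie above the line, as do 11 of 11 GTPases, 15 of 17 T-cell markers and 1 of 17 sterol genes; genes of a list are read from the same arrays and are not replicates, undetected genes are included, and no gene passed the test of the difference.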

How the data were processed

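Whole-diaphragm RNA was hybridised to Illumina MouseRef-8 v2.0 arrays, 1 mouse per array. The authors deposited mean bead signals per probe (linear intensity from GenomeStudio 1.8, not normalised) with a detection p-value against negative control beads, and a normalised signal, which was used as an alternative. The platform annotation names 1 gene for 23978 probes and none for 1719. For the 16 WT and PHIL arrays together, background was removed by normexp with controls inferred from detection p-values (offset 16), followed by quantile normalisation on the log2 scale in limma 3.58.1 (R 4.3.3). Probes with a detection p under 0.01 on at least 2 of the 16 arrays were kept, and the probe of highest interquartile range stood for its gene. A limma fit of the 6 groups (residual df 10) gave moderated tests with Benjamini-Hochberg adjustment over 8226 genes. Genes were called at an adjusted p of at most 0.05 and a log2 change of at least 0.59. For a gene detected on no array of a group, "at least N-fold" is taken against the dimmest detected signal of each array in that group, or the probe's own signal where higher. A gene detected on part of a group's arrays keeps the fold of its own signals. The adjusted p beside a bound tests the change in the probe's own signals and not the bound. Calls use that change too, so the bound of a called gene can lie below the fold threshold. The fit and call rule were also run on simulated data with known changes and independent noise. That simulation held no detection floor and no array effects, so it cannot vouch for calls that depend on them. The number of arrays limits the precision.

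Genes were named by rule: the largest called rises and falls detected in both groups, the largest appearing and disappearing genes, the smallest p for the difference from WT, leading members of each list and genes the study names. Comparisons, members and lists were chosen with earlier results of these data known, so no list was tested, and lists are described by counts and medians. Alternatives covered background, scaling, the authors' values, filters, probe choice, thresholds, weights, the replicate number as a block and leaving out each array. The Eif2s3y settings were chosen after seeing the data.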

Additional observations from a re-analysis of the deposited data

How the results depend on the processing

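Counts for PHIL at 7 dpi against 2 dpi (1662 called, 878 higher and 784 lower) moved by over 1.5 times under these settings. Without background correction 791 genes were called (449 higher, 342 lower), and with the authors' normalised values 790 (451 higher, 339 lower). An offset of 50 gave 515 lower, and median scaling 1668 higher and 406 lower. A 2-fold threshold gave 520 (326 higher, 194 lower) and no fold threshold 3265 (1649 higher, 1616 lower). In the same order of settings (no background correction, the authors' values, 2-fold, no fold threshold), WT at 7 dpi against 2 dpi had 742, 741, 523 and 3058 calls in place of 1525, PHIL at 2 dpi against naive 737, 740, 536 and 2650 in place of 1525, and PHIL at 7 dpi against naive 1086, 1091, 772 and 3638 in place of 2164. Genes that passed out of detection numbered 54, and 14 with a detection p under 0.05. Leaving out 1 array gave 1588 to 1711 calls for PHIL at 7 dpi against 2 dpi (827 to 902 higher, 735 to 809 lower), 1385 to 1623 for WT, 1355 to 1529 for PHIL at 2 dpi against naive, 2010 to 2315 for PHIL at 7 dpi against naive and 0 to 0 for the difference between PHIL and WT. Deviations of same-numbered PHIL arrays from their group means correlated at 0.04, -0.06 and -0.02, and those of different-numbered arrays at -0.05 to 0.07. With 3 arrays per group these values cannot decide whether the numbers pair the mice. With the replicate number as a block 1669 genes were called. Signs changed for Tpm3 (log2 change 0.35 without background correction, 0.74 with median scaling, 0.35 with the authors' values, 0.48 with the probe of highest mean), for Lyz2 (0.66 with the authors' values, 0.65 with the 8 PHIL arrays alone, 0.66 with the probe of highest mean), for Ryr1 (0.41) and Ubr7 (-0.0113) with the probe of highest mean, for Grb14 (0.14) without the filter on dim probes, and for Klf4 without replicate 3 at 7 dpi (range -0.30 to 1.13 over the settings that left out 1 array). The cause was not tested, other than that the setting chose another probe where it is named so. A block for the slide could not be fitted, because the slide of each array is not given in the sources used here. Probes near background limit the folds of dim genes, which is why bounds are printed for them.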
